A study of Mus musculus with 6 samples.

Results

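The 9 genes described here are the transcription factor genes Atf4 and Ddit3, the feedback and effector genes Trib3, Ppp1r15a, Chac1 and Ddit4, and the amino acid synthesis genes Asns, Psat1 and Phgdh. They were picked by symbol as well-known targets or components of the integrated stress response, and all 9 are among the 14927 genes of the table. The RNA came from cultured aortic smooth muscle cells of wild-type C57BL/6 mice, used at passages 3 to 7, kept in medium with 0.5% serum for 24 h and then given vehicle or 100 ng/mL recombinant TWEAK in the same low serum for another 24 h. TWEAK, a TNF-family cytokine, acts through the receptor Fn14. Each group had 3 libraries, and the table's headings tie libraries with the same number to 1 experiment; all cultures, vehicle included, were serum-deprived. The labels do not say whether the experiments used cells of separate animals, so the p-values measure the spread between these experiments, which may be technical.

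In the integrated stress response, kinases that sense misfolded protein, missing amino acids, viral RNA or low haem phosphorylate the translation factor eIF2. General translation slows, while the message of the transcription factor ATF4 is translated more. ATF4 then switches on genes of amino acid uptake and synthesis together with CHOP, the product of Ddit3, and with brakes on the response. ATF4 is thus set largely at translation, which RNA levels do not show.

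After TWEAK, Trib3 fell 1.71-fold, and it was the only one of the 9 genes to pass the test over all genes. Ddit3, Chac1, Ppp1r15a, Atf4 and Asns had lower values with TWEAK in all 3 experiments without passing, with log2 fold changes from -0.48 to -0.17. The serine synthesis genes Phgdh (-0.13) and Psat1 (0.15) lay on opposite sides of 0, and Ddit4 was at 0.09. The median of the 9 log2 fold changes was -0.25, and that of all genes tested was 0.02.

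The test was limma on log2(normalized count + 1) with the experiment as a block and Benjamini-Hochberg adjustment over all genes, with an adjusted p under 0.05 called. Calls made up 13.7% of all genes tested, 5.55% lower and 8.11% higher, against 1 lower and no higher call among the 9. With edgeR, DESeq2 and limma-voom none of the 9 was called higher either. An unadjusted limma p under 0.05 was reached by 6 of the 9 genes and by 30.3% of all genes. Values were lower in all 3 experiments for 7 of the 9 genes and for 27% of all genes. In 5 of the 9, every TWEAK library lay below every vehicle library, as in 7.42% of all genes; none had every TWEAK library above, as 8.6% of all genes did. In the authors' deposited table, made with DESeq2, 4 of the 9 were lower at an adjusted p under 0.05, as were 7.31% of all genes, and none was higher (10.8% of all genes).

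**Figure D1:**
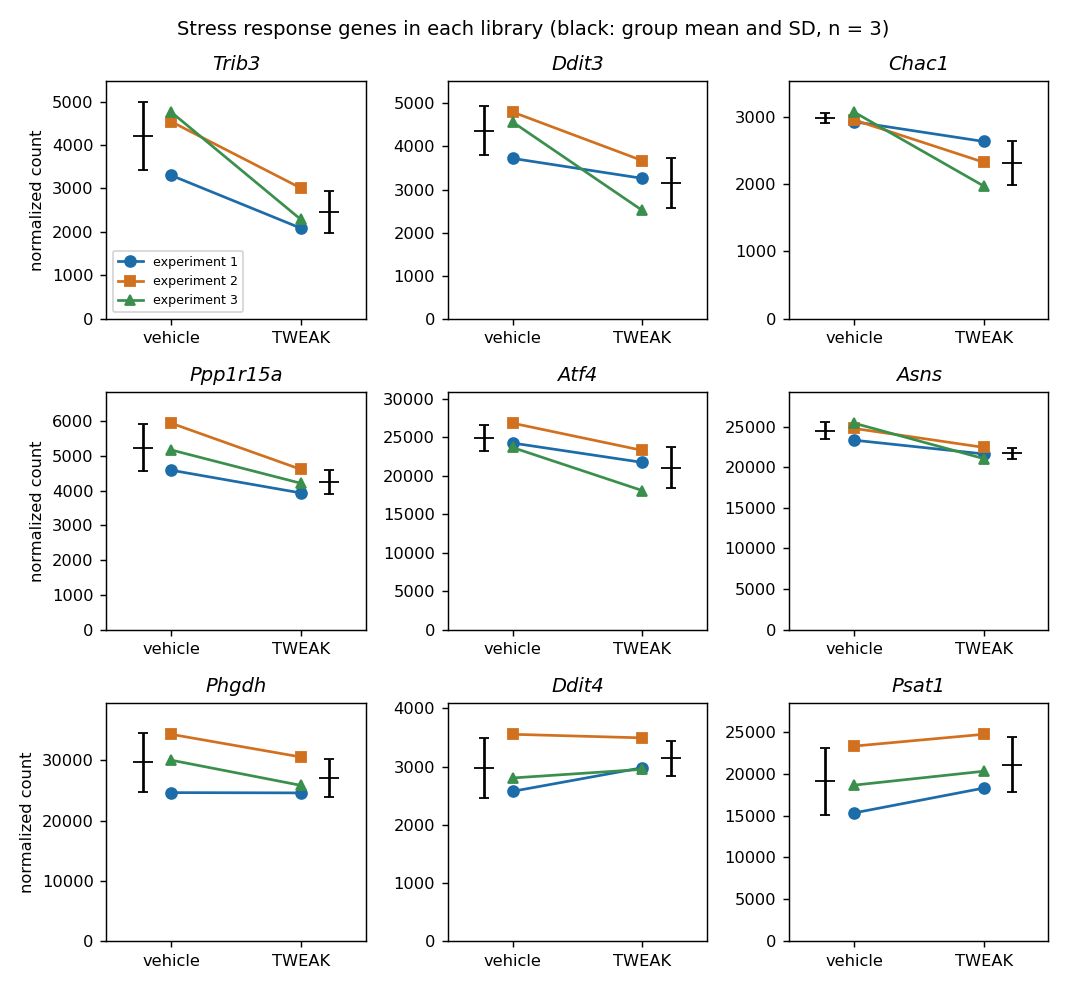
Normalized counts (vertical axis, from 0) of the 9 genes in the 3 vehicle and 3 TWEAK libraries, with lines joining the libraries of 1 experiment and black marks giving each group's mean and SD. The lines of Trib3 all fall, from 3301 to 4759 with vehicle to between 2085 and 3009 with TWEAK, and those of Psat1 all climb.

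Trib3 encodes a pseudokinase that binds AKT and also restrains ATF4 and CHOP, so that it works as a brake on the response that induces it. The vehicle libraries of experiments 1, 2 and 3 held 3301, 4539 and 4759 normalized counts of Trib3, and the TWEAK libraries 2085, 3009 and 2286. The highest TWEAK library lay below the lowest vehicle library. The means were 4200 ± 786 and 2460 ± 486 (SD, n = 3), and the change was -0.77 on the log2 scale (SE 0.11, limma adjusted p = 0.0132). The log2 ratios within experiments were -0.66, -0.59 and -1.06, and only 2.60% of all genes had a lower log2 fold change. The call was lost without the block (limma adjusted p = 0.264), without experiment 1 (0.0735) and without experiment 3 (0.0518), while the estimate stayed between -0.86 and -0.63 in all 16 alternative settings.

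Atf4, which encodes the central transcription factor, was among the more abundant messages. It held 24256, 26835 and 23676 normalized counts in the vehicle libraries and 21741, 23304 and 18085 in the TWEAK libraries. The groups did not overlap, although the lowest vehicle and the highest TWEAK library differed by little. The log2 fold change of -0.25 (SE 0.07, limma adjusted p = 0.0735) did not pass, and its 95% interval ran from -0.42 to -0.08. Without experiment 2 the adjusted p was 0.00461, and with upper quartile scaling it was 0.0274. These were the only 2 of 16 alternative settings that called Atf4. It did not pass with edgeR, DESeq2 or limma-voom, and the authors' deposited table gives an adjusted p of 0.0918.

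Ddit3 encodes CHOP, a transcription factor tied to cell death after prolonged stress. Its vehicle libraries held 3723, 4800 and 4568 normalized counts and its TWEAK libraries 3260, 3672 and 2516. The groups did not overlap, and experiment 3 showed the lowest log2 ratio, -0.86 against -0.19 and -0.39. The estimate for Ddit3 was -0.48 on the log2 scale (SE 0.14, limma adjusted p = 0.0845; 95% interval -0.83 to -0.13). Without experiment 3 it was -0.29. The authors' deposited table gives Ddit3 an adjusted p of 0.0109 at a log2 fold change of -0.48. That comparison included, Ddit3 passed in 5 of 16 alternative settings. It did not pass with edgeR, limma-voom or any experiment left out.

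Ppp1r15a encodes GADD34, the subunit that directs a phosphatase to eIF2 and so ends the response. It held 4589, 5941 and 5172 normalized counts with vehicle and 3935, 4614 and 4214 with TWEAK. The groups overlapped, since the TWEAK library of experiment 2 lay just above the vehicle library of experiment 1, yet the log2 ratios within experiments were even, at -0.22, -0.36 and -0.30. The log2 fold change of -0.29 (SE 0.07, limma adjusted p = 0.0505) narrowly missed the threshold. It passed in 7 of 16 alternative settings, and the authors' deposited table gives an adjusted p of 0.0356.

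Chac1, a glutathione-degrading enzyme gene, held 2930, 2956 and 3074 normalized counts with vehicle, the tightest vehicle values of the 9 (SD 76.5). The TWEAK libraries held 2636, 2327 and 1974. Every TWEAK library was below every vehicle library, and the gap was widest in experiment 3. The estimate for Chac1 was -0.38 on the log2 scale (SE 0.11, limma adjusted p = 0.0840; 95% interval -0.66 to -0.10). It was -0.25 without experiment 3, and the adjusted p in the authors' deposited table is 0.0317. That comparison included, Chac1 passed in 5 of 16 alternative settings, but not with edgeR or limma-voom.

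Ddit4 encodes REDD1, an inhibitor of the growth kinase complex TORC1 that also responds to hypoxia and glucocorticoids. Its libraries held 2573, 3554 and 2803 normalized counts with vehicle and 2979, 3493 and 2951 with TWEAK. The groups overlapped, and 2 of 3 experiments were higher with TWEAK. The estimate for Ddit4 was 0.09 on the log2 scale (SE 0.08, limma adjusted p = 0.493), with a 95% interval from -0.11 to 0.28. Without experiment 1 the estimate was 0.02. Only the correction for GC content and length called it, at 0.18 (adjusted p = 0.0422).

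Asns encodes asparagine synthetase, a classical ATF4 target. It held 23329, 24776 and 25420 normalized counts with vehicle and 21635, 22440 and 21060 with TWEAK. The groups did not overlap, but the shift was small: the estimate was -0.17 on the log2 scale (SE 0.06, limma adjusted p = 0.132; 95% interval -0.33 to -0.02).

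Phgdh and Psat1 encode the enzymes of consecutive steps of serine synthesis. Phgdh held 24633, 34320 and 30027 normalized counts with vehicle and 24587, 30554 and 25841 with TWEAK. The groups overlapped widely, and in experiment 1 both libraries were nearly level. The estimate was -0.13 on the log2 scale (SE 0.07, limma adjusted p = 0.255; 95% interval -0.29 to 0.04). Psat1 held 15306, 23302 and 18631 normalized counts with vehicle and 18277, 24714 and 20295 with TWEAK. It was higher with TWEAK in all 3 experiments although the groups overlapped, because its level depended on the experiment. The estimate for Psat1 was 0.15 on the log2 scale (SE 0.06, limma adjusted p = 0.177; 95% interval -0.01 to 0.32), and without experiment 2 the adjusted p was 0.0346. In the comparison among experiments, Psat1 (limma adjusted p = 0.0115) and Phgdh (0.0272) passed. The rest of the 9 did not pass, with limma adjusted p from 0.0522 (Ddit4) to 0.714 (Asns). Not passing does not show equal levels, and no share of all genes is given for this comparison. Phgdh has near-identical annotated copies: 13 other genes hold a transcript that matches it at 95% identity or more over at least 200 bases. No source used here says how such reads were assigned, so its value is uncertain.

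**Figure D2:**
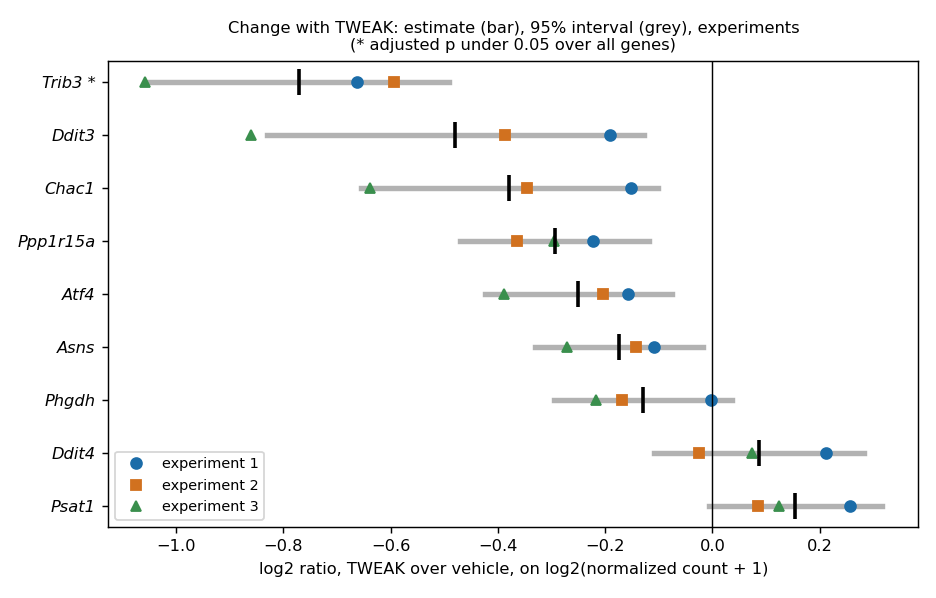
Log2 ratio of TWEAK over vehicle (horizontal axis) for the 9 genes, with coloured symbols for the 3 experiments, black bars for the limma estimate and grey lines for its 95% interval. The interval of Trib3, from -1.05 to -0.49, lies furthest from 0, and those of Phgdh, Ddit4 and Psat1 include 0.

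The size of the shift varied between experiments, a difference that was not tested. Experiment 3 gave the lowest log2 ratio for 6 of the 9 genes, and experiment 1 the highest for 8 of 9. The median log2 ratio of the 9 genes was -0.15, -0.20 and -0.30 in experiments 1, 2 and 3. The median over all genes was -0.02, 0.04 and -0.02. Regardless of sign, the median log2 ratio over all genes was 0.17, 0.28 and 0.21, so experiment 1 was the smallest there too. No share of all genes is given beside the counts by experiment, which therefore do not set the 9 apart from other genes. Set against Atf4 in the same library, the log2 level of Trib3 was lower with TWEAK by a mean of 0.52 and that of Ddit3 by 0.23. Relative to Atf4, Psat1 was higher by 0.40 and Ddit4 by 0.34. No test was made of these differences between genes.

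Other cell types in the cultures varied with the experiment. All 8 smooth muscle markers were measured, and all 8 fell with TWEAK; their summed normalized counts ran from 336809 to 388640 with vehicle and from 201131 to 279936 with TWEAK. The 11 macrophage markers summed to between 3232 and 59097 with vehicle and between 3501 and 57274 with TWEAK, with experiment 1 the highest in each group. The 10 endothelial markers summed to between 10651 and 69487 and between 9124 and 60887, with experiment 1 the lowest. No gene measured was at 0 in any library, so marker values above 0 are no sign of these cells by themselves. Of the macrophage and endothelial markers limma called none (1 of 11 and 5 of 10 had an unadjusted p under 0.05). Of 6 adventitial fibroblast markers, 2 rose and 1 fell, and the sums were 19312 to 63129 and 25975 to 89543. The part of these cells in the changes of the 9 genes was not tested, and in bulk RNA fewer cells of a type and less RNA per cell cannot be told apart. Recovered reads per library ran from 62632273 to 82118717.

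Levels between genes were compared as normalized counts per kilobase of annotated exon in the vehicle libraries. Phgdh stood highest at 11931 ± 1953 per kilobase (SD, n = 3), followed by Atf4 at 10569 ± 713, and their ranges overlapped. Asns came next at 8961 ± 391, below every library of both. Psat1 held 4485 ± 944 per kilobase, apart from its neighbours, and Ddit3 2547 ± 331, with a range that reached into that of Trib3. Trib3 (1976 ± 370), Chac1 (1825 ± 46.7), Ppp1r15a (1782 ± 231) and Ddit4 (1696 ± 292) overlapped and have no order beyond their spread. Of the transcription factor genes, Atf4 was thus more abundant than Ddit3. By mean normalized count with vehicle, not divided by length, Atf4 stood above 97.0% of all genes and Ddit3 above 73.5%.

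ATF4 binds DNA with C/EBP partners at a composite element whose core is written TGATGNAA. It was searched on both strands (TTNCATCA on the opposite one) in the windows from 250 bases before to 50 bases after each RefSeq gene start, build GRCm38.p6, where all 9 genes matched. The windows of Chac1, Trib3 and Asns held it, 3 of 9 genes, against 2.88% of the 10828 tested genes with such a window and 4.51% of all 27025 genes with one. The sites are shown because they place Trib3, which fell, beside 2 genes that did not pass. Each line has 30 bases on the gene's own strand with the element in capitals. The first base of the element lies 193 bases before the start in Chac1, at base 15 after it in Trib3 and 23 bases before it in Asns. In order these are chr2:119351038-119351067 (plus strand), chr2:152344028-152344057 (minus strand) and chr6:7693214-7693243 (minus strand).
Chac1: cttccctgccgTTGCATCActcctgccagg
Trib3: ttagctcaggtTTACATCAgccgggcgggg
Asns: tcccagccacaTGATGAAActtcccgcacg
The letters run on opposite strands in Asns and in the other two. A match is a description of these letters, and windows without one say nothing of elements elsewhere.

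The 250 bases before the start of Chac1 (chr2:119350992-119351241, plus strand) and of Asns (chr6:7693210-7693459, minus strand) show how differently the element is placed, far from the start in the one and next to it in the other.
Chac1: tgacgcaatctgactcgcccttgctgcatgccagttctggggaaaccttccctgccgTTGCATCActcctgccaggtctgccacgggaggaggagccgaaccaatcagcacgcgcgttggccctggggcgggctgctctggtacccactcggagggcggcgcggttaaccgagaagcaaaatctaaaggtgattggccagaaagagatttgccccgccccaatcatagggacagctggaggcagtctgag
Asns: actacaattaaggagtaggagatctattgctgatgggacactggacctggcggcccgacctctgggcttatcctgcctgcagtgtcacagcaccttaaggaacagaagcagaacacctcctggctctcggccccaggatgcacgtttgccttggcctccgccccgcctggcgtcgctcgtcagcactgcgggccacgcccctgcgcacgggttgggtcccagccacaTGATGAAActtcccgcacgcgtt
Among other genes of the response, the element was found in 5 of 13 tRNA synthetase windows (Aars, Gars, Iars, Tars and Yars), 3 of 11 of amino acid synthesis (Pycr1, Got1 and Pck2), 2 of 6 of amino acid transport (Slc7a11 and Slc1a4) and 2 of 5 of the partner transcription factors (Atf3 and Nupr1). One window each held it among the eIF2 machinery (Eif2s3x) and the other arms of the unfolded protein response (Herpud1), and 2 of 5 among further targets (Vldlr and Fgf21). Of the 312 tested genes with the element, 28 rose and 26 fell (8.33% lower). All genes tested, with or without such a window, gave 8.11% higher and 5.55% lower. The median log2 fold change of the 312 was 0.01, against 0.02 for all tested genes with a window.

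The other genes of the response are given by list, to be read beside the 13.7% of all genes called and the 30.3% with an unadjusted p under 0.05. Of the partner transcription factors 2 of 5 fell and none rose (median -0.14 on the log2 scale), and the same number had an unadjusted p under 0.05. Atf3, a stress-induced repressor made downstream of ATF4, held 1674, 2041 and 1287 normalized counts with vehicle and 951, 1050 and 782 with TWEAK. The groups did not overlap, and the log2 ratios of -0.81, -0.96 and -0.72 were even. Its log2 fold change of -0.83 (SE 0.09, limma adjusted p = 0.00582) was larger than that of Trib3, and its call was lost only without the block (0.238). Atf5, a factor translated in the same way as ATF4, fell by 0.36 on the log2 scale (SE 0.08, limma adjusted p = 0.0451) with overlapping groups; without experiment 1 or 3, and with edgeR or limma-voom, its call was lost. Cebpb (-0.14), Cebpg (0.07) and Nupr1 (0.01) did not pass.

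The sensors and the eIF2 machinery, 15 genes, had no limma call, with 1 unadjusted p under 0.05, and the median log2 fold change was 0.05. The most abundant were Eif2s3x, an eIF2 subunit gene, at 0.29 (limma adjusted p = 0.258; 0.067 without experiment 2) and Impact, an inhibitor of the amino acid sensor GCN2, at 0.20 (0.530; -0.10 without experiment 2). In experiment 2 the vehicle library held 4692 normalized counts of Impact, against 15434 and 15132 in the other two. It was likewise the lowest vehicle library for Eif2s3x (10662, against 19259 and 21170), Eif2s1 (6060, against 9775 and 10190) and Eif2s2 (4930, against 15262 and 12520), the genes of the eIF2 subunits. The TWEAK library of experiment 2 was also the lowest of its group for Impact (8252, against 13597 and 14918) and for these subunit genes. Low values in experiment 2 were not particular to them. Its vehicle library was also the lowest for Eprs (11887, against 42688 and 44600) and Hsp90b1 (17406, against 66453 and 56646), genes of other lists. For Eif2b5, of the same list, it was the highest (10459, against 7268 and 8050). Eif2ak2, the double-stranded RNA sensor PKR and an interferon-induced gene, was chosen after its values were seen. It was higher in all 3 experiments (log2 ratios 0.37, 1.22 and 0.38) at a log2 fold change of 0.65 (limma adjusted p = 0.0810); without experiment 2 it was 0.37 (0.000124). DESeq2 with the block called this 1 of the 15, as did the authors' deposited table. Ppp1r15b, the constitutive counterpart of Ppp1r15a, was at -0.03.

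Of 13 of amino acid synthesis and mitochondrial folate metabolism, 1 rose and none fell, and the median change was -0.14 (log2); 6 of the 13 had an unadjusted p under 0.05 and 8 lay below 0. The one that rose was Shmt2, the mitochondrial serine hydroxymethyltransferase, with 7990, 10076 and 10582 normalized counts with vehicle and 10726, 13086 and 12567 with TWEAK. Its groups did not overlap, and it rose by 0.35 on the log2 scale (SE 0.07, limma adjusted p = 0.0300). Psph, which completes serine synthesis after Psat1, was at -0.20 (adjusted p = 0.188). Of 9 amino acid transporters, 6 had an unadjusted p under 0.05 and 7 lay below 0, with a median of -0.19. By limma 2 fell and none rose: Slc1a4, a transporter of neutral amino acids, by 0.40 (SE 0.08, limma adjusted p = 0.0286) and the glycine transporter gene Slc6a9 by 0.37 (SE 0.09, 0.0441). Of these 9, the authors' deposited table has 2 lower and 2 higher. Of 20 cytosolic tRNA synthetases 1 rose, Vars, by 0.34 (SE 0.07, limma adjusted p = 0.0326), the median was 0.02, that of all genes, and 4 had an unadjusted p under 0.05. Mars overlaps Ddit3 on the opposite strand over 68 exon bases; it was at 0.02. The calls of Shmt2, Slc1a4, Slc6a9 and Vars were lost without experiment 1 and without experiment 3, and that of Slc6a9 also with edgeR and limma-voom.

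**Figure D3:**
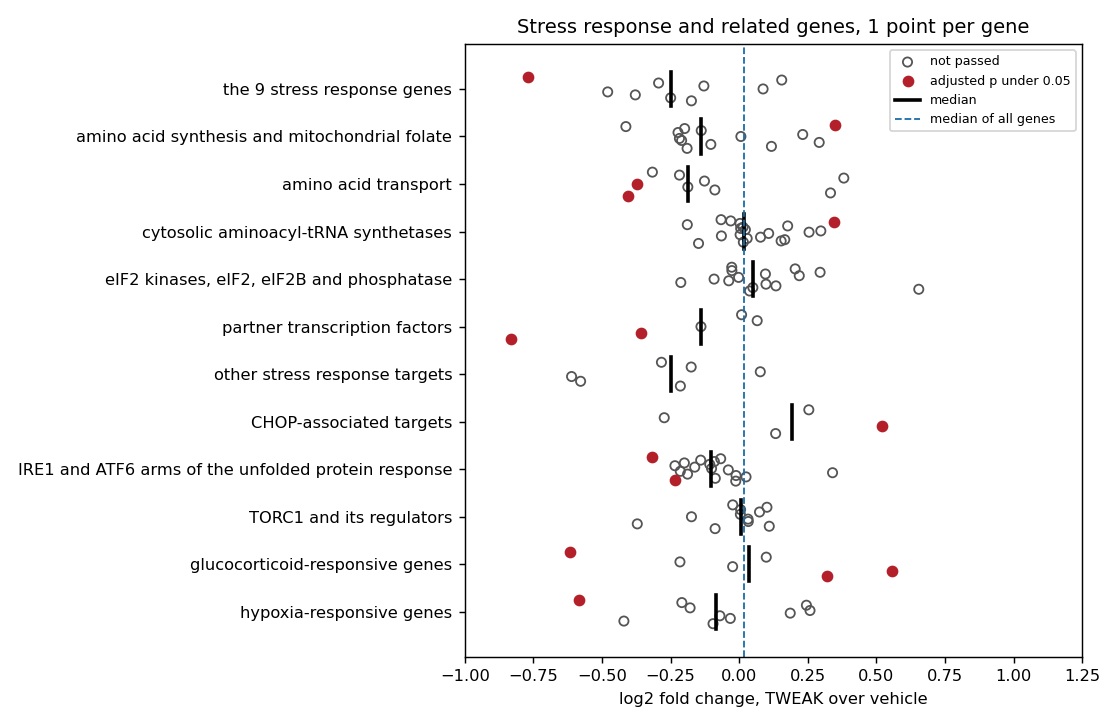
Log2 fold change with TWEAK (horizontal axis) of each gene of the 9 and of 11 related lists, 1 point per gene, filled red where the limma adjusted p was under 0.05, with black bars at each list's median and a dashed line at the median of all genes, 0.02. Red points number from none to 3 in a list, and Atf3 at -0.83 and Trib3 at -0.77 lie furthest to the left.

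Among 6 further secreted or signalling targets none passed limma, with 2 unadjusted p under 0.05, and 5 of 6 log2 fold changes were below 0 (median -0.25). Gdf15, a stress-induced cytokine named after its values were seen, held 1805, 2465 and 2092 normalized counts with vehicle and 1556, 1295 and 1295 with TWEAK, without overlap. The estimate was -0.61 on the log2 scale (SE 0.15, limma adjusted p = 0.0546), and DESeq2 with the block called it, as did the authors' deposited table. Eif4ebp1, a translation repressor, was at -0.21 (adjusted p = 0.122) and Vldlr, a lipoprotein receptor, at -0.28 (0.217). Of 4 genes tied to CHOP 2 had an unadjusted p under 0.05 and 1 rose: Bcl2l11, the death gene BIM, by 0.52 (SE 0.10, limma adjusted p = 0.0275). Its call was lost without experiment 1 and without experiment 3.

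The other arms of the unfolded protein response, run by IRE1 and ATF6, had 2 lower calls of 18 genes, and 16 of 18 log2 fold changes were below 0 (47.7% of all genes were), with a median of -0.10 and 7 unadjusted p under 0.05. Calr, a chaperone of the endoplasmic reticulum, fell by 0.23 (SE 0.05, limma adjusted p = 0.0342), and Xbp1, the transcription factor that IRE1 activates, by 0.32 (SE 0.07, 0.0413). DESeq2 did not call Calr, edgeR called neither gene, and both calls were lost without experiment 1 and without experiment 3. Hspa5, the chaperone BiP, was at -0.10 (0.523). Without experiment 2, 11 of the 18 were called, all lower. The number of all genes called also changed with the experiment left out, and no share of all genes is given beside this count. It therefore does not set the list apart from other genes.

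Genes of the TORC1 pathway, on which the Ddit4 product acts, had no limma call among 11, no unadjusted p under 0.05 and a median of 0.00; the most abundant, Rheb and Tsc2, were at -0.17 and -0.02. DESeq2 also called none of the 11. Of 10 hypoxia-responsive genes 3 had an unadjusted p under 0.05 and 1 fell, the angiogenic factor gene Vegfa, by 0.58 (SE 0.09, limma adjusted p = 0.0133). Of 6 measured glucocorticoid-responsive genes 2 rose and 1 fell, the same 3 that had an unadjusted p under 0.05: Fkbp5 by 0.56 (SE 0.08, limma adjusted p = 0.0107), Errfi1 by 0.32 (SE 0.08, 0.0488), and Tsc22d3 by 0.62 downwards (log2 fold change -0.62, SE 0.08, 0.00960). Without experiment 3 the calls of Vegfa, Fkbp5, Errfi1 and Tsc22d3 were lost, and without experiment 1 those of Vegfa, Fkbp5 and Errfi1.

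The genes with the profile most like that of Atf4 over the 6 libraries, among 12660 with a mean of at least 100, were Arf2, Lzts2, Spcs1, Ostf1 and Ostc, whose centred log2 values differed from it by a root mean square of 0.0302 to 0.0374. Those most like Trib3 were Klf2, Prr7, Hid1, Gm15698 and Wnt4, at 0.0765 to 0.119. None of the other 8 stress response genes was among them in either case.

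**Figure D4:**
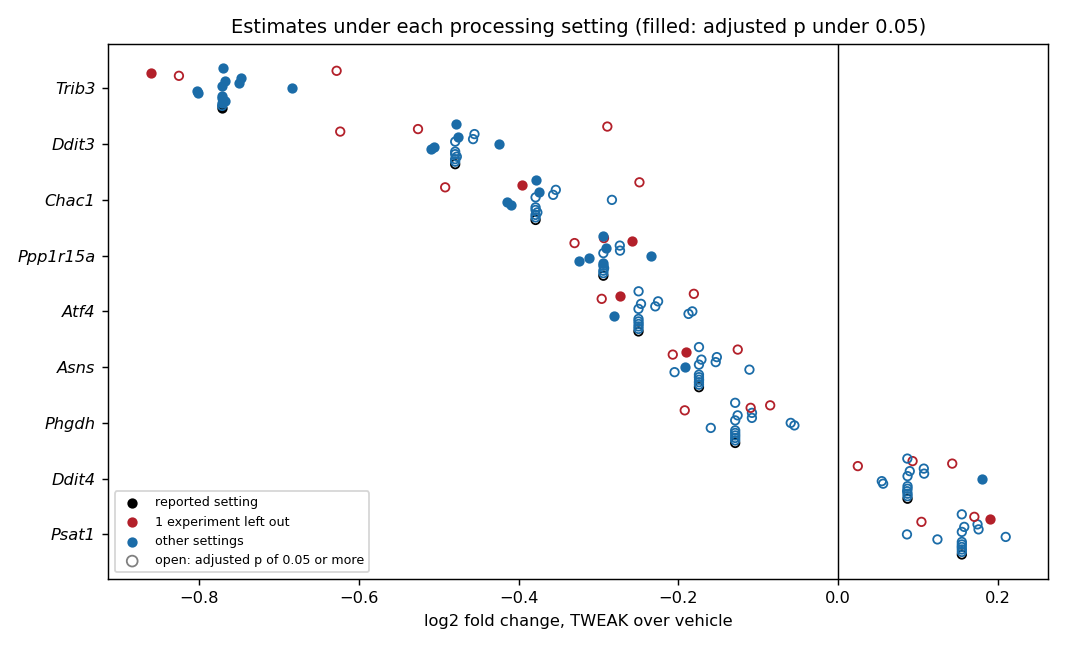
Log2 fold change (horizontal axis) of the 9 genes with the reported settings (black), with 1 experiment left out (red) and under the other settings (blue), filled where the adjusted p was under 0.05. Each gene stays on 1 side of 0 in all settings shown, and the filled points are most frequent for Trib3, called in 13 of 16 alternatives.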

How the data were processed

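The libraries were made with a stranded Illumina total RNA kit, per the labels' design text. The authors deposited 1 table of 14927 genes. Per the file headers it holds the authors' mean of normalized counts, log2 fold change and standard error, Wald statistic (a score), p-value and adjusted p-value. For each library there is a column of normalized counts, a signal made by dividing reads by a size factor. DESeq2 is named in the submitters' processing notes; no source used here names the aligner, counter, strand setting, build or annotation. In every deposited signal column 100% of values were whole multiples of 1 read within 0.01, which gave 62632273 to 82118717 reads per library.

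Genes whose mean reached 1 (all 14927) were compared as log2(normalized count + 1) with limma 3.58.1 in R 4.3.3 (trend, robust, two-sided), with the experiment as a block and Benjamini-Hochberg adjusted p under 0.05. Same-numbered libraries deviated together from their group means (correlations across genes of 0.879, 0.868 and 0.734), and the header numbers name experiments, so the numbers were taken as pairs. No 2 libraries were duplicates (lowest chi-square per degree of freedom 90.7). The fits were tested on simulated data. Alternatives were edgeR 4.0.16, DESeq2 1.42.0 and limma-voom on the recovered reads, other scalings, filters and pseudocounts, no block, and each experiment left out; the authors' deposited comparison was added after the data were seen. Exon lengths and GC content came from GENCODE M21, matched by symbol for 99.1% of genes; near-identical transcripts were sought there with blastn 2.17.0.

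The 9 genes, the lists and the block were chosen with earlier results of these data known. Named are all 9, up to 4 called genes of each list by adjusted p (else the 2 most abundant), the 5 profiles nearest Atf4 and Trib3, and others given for context, chosen after their values were seen.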

Additional observations from a re-analysis of the deposited data

How the results depend on the processing

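Each of the 9 genes kept its direction in all 16 alternatives. With the block, 2039 genes were called, 1210 higher and 829 lower, among them 1 of the 9. Without the block (the paired experiments ignored), limma called 3 genes and none of the 9. An unadjusted limma p under 0.05 was then reached by 3 of the 9 and by 1480 of all 14927 genes. The correction for GC content and length called 4168 genes, 1952 higher and 2216 lower. It called 5 of the 9, of which Ddit4 was higher and the others lower. Without trend and robust estimation 1225 genes were called. Of the 9, a mean of at least 50 gave 2 calls, upper quartile scaling 5, cyclic loess 4 and DESeq2 4, and there were 4 in the authors' deposited comparison. Apart from the deposited comparison, the share of all genes called in these settings is not given here. These counts therefore do not set the 9 apart from other genes. Leaving out 1 experiment called 666 to 3902 genes and 0 to 6 of the 9. None of the 9 was called without experiment 1 or 3 (6 and 1 at an unadjusted p under 0.05). Without experiment 2, 6 were called, of which Psat1 was higher and the others lower. For the fits with 1 experiment left out, too, no share of all genes is given. Their counts do not set the 9 apart from other genes either. Across all named genes 376 log2 fold changes stayed on their side of the threshold, 42 passed it anew, 60 lost it and 2 reversed, both uncalled and both without experiment 2 (Impact, -0.10 to 0.40 with 1 experiment left out, and Tsc2, -0.12 to 0.057). List counts moved by over 1.5 times in 78 cases and by less in 98. The cause was not tested. Only 3 experiments set the precision, and the widest 95% interval of the 9 was that of Ddit3, -0.83 to -0.13. The lowest count of the 9 was that of Chac1 with TWEAK in experiment 3, 1974 normalized counts.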
